A study of Homo sapiens with 6 samples.

Results

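The genes described here are 37 interferon-stimulated effector genes, read from the deposited table of 56638 gene rows by their symbols. The list holds interferon-induced proteins that act on viruses or on the interferon response itself. The OAS synthetases, antigen presentation genes and upstream signalling genes were kept out of it. All 37 symbols have a row. They were measured as poly(A) RNA, in 6 libraries, in MOLM-13, an established cell line from a human acute myeloid leukaemia with monocytic traits. In 3 libraries (UDI0051, UDI0052 and UDI0053) the cells had been kept for 24 h with UC-764864 at 2 µM; the other 3 (UDI0054, UDI0055 and UDI0056) came from cells given DMSO, the solvent. The series title names UC-764864 as an inhibitor of UBE2N, an enzyme that builds ubiquitin chains in innate immune signalling; the design text spells the compound UC-744864 and the sample labels UC64. All libraries come from this single line, and no label ties them to separate cultures, so the spread behind each p-value may be technical.

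Type I interferon binds a receptor whose kinases, JAK1 and TYK2, set off the assembly of the transcription factor complex ISGF3. ISGF3 enters the nucleus and binds the interferon-stimulated response element (ISRE), a short sequence near the starts of its target genes. Many cells, myeloid cells among them, express some of these genes at a low level without infection.

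Library totals ran from 17073654 to 25014437 counts with UC-764864 and from 16136156 to 24511499 counts with DMSO. In DMSO library UDI0055, 3799 rows in 2 unbroken runs stand at 0, and these rows were left out as missing; none of the effector genes lies in them. Libraries UDI0052 and UDI0056 had the smallest share of counts in genes of at least 60% GC, 9.06% and 9.26%, against 11.0% to 12.6% in the others. UBE2N itself was at 159 ± 10.9 CPM with UC-764864 and 189 ± 17.0 CPM with DMSO (mean ± SD, n = 3 each), and did not pass the test (edgeR log2 fold change −0.25 ± 0.11, SE; adjusted p = 0.156); a small-molecule inhibitor need not change its target's transcript. Of the 12 genes fixed as marks of this line, 11 passed the filter on low counts, and CD14 did not, at 0.394 ± 0.118 CPM with UC-764864 and 0.304 ± 0.131 CPM with DMSO. The summed level of those 12 was 6420 to 7420 CPM with UC-764864 and 4170 to 4440 CPM with DMSO, most of it LYZ, the monocyte lysozyme, which averaged 5850 CPM with UC-764864 and 3170 CPM with DMSO; LYZ was singled out after its values were seen. By edgeR 1 of the 11 tested was higher (LYZ) and 3 were lower (27.3%, against 8.13% of all genes tested). Those 3 were ITGAM at −1.02, HOXA9 at −0.73 and CSF1R at −0.58, and the median log2 fold change of the 11 was −0.11. Marks of T and B cells summed to 1.23 to 1.84 CPM with UC-764864 and 1.96 to 2.65 CPM with DMSO, with MS4A1 at 0. The part of these shifts in the results was not tested. Stromal and epithelial marks overlapped between the groups in their sum, at 16.1 to 17.1 CPM with UC-764864 and 12.7 to 17.5 CPM with DMSO. Most of that sum was KRT18, which averaged 16.1 CPM with UC-764864 and 14.2 CPM with DMSO. COL1A1 averaged 0.598 CPM with UC-764864 and 1.02 CPM with DMSO, without overlap, and did not pass (edgeR adjusted p = 0.154). CLEC4C and LILRA4, marks of plasmacytoid dendritic cells, which are the main interferon producers of blood, averaged at most 0.112 CPM with UC-764864 and 0.138 CPM with DMSO. Of the other genes on that list, IL3RA, which myeloid leukaemia cells also express, was at 87.4 to 95.8 CPM with UC-764864 and at 115 and 118 CPM in the DMSO libraries other than UDI0055, where its row is missing. TCF4 averaged 2.57 CPM with UC-764864 and 2.03 CPM with DMSO, and did not pass (edgeR adjusted p = 0.251).

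The list was not drawn from promoter sequence, but its genes were chosen as interferon-induced. A high share of genes with an ISRE among them therefore follows largely from that choice. RefSeq promoter windows (GRCh38.p14, 250 bases before to 50 after each transcript start) were found for 31 of the 37 genes. The 9 letters GAAANNGAA, the core of the ISRE, occur on either strand in a window of 25 of these 31 genes, or 80.6%, against 9.86% of the 27305 genes in the promoter table. Counted by window, 30 of 43 windows of the effector genes hold the letters (69.8%), against 8.11% of all 35116 windows. The letters TTCNNNGAA of the GAS element, known best from the response to interferon gamma, occur in 9 of the 31 genes (29%), against 9.38% of all genes. Both motifs were searched on both strands, with overlapping matches counted, and a match is only a match of letters.

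The windows of 6 genes are shown because they hold the ISRE letters: IFI6, IFI44L and IFIT1 as genes that fell, ISG15 for its overlapping matches, and RSAD2 and PARP9 for a site shared with a neighbour. Each gives the 170 bases before the transcript start, 5′ to 3′ on the gene's strand, with the ISRE letters of either strand in capitals. IFI6 lies on chr1:27672193-27672362 (minus strand), IFI44L on chr1:78620278-78620447 (plus), IFIT1 on chr10:89392453-89392622 (plus), ISG15 on chr1:1013327-1013496 (plus), RSAD2 on chr2:6865715-6865884 (plus) and PARP9 on chr3:122564301-122564470 (minus).
IFI6: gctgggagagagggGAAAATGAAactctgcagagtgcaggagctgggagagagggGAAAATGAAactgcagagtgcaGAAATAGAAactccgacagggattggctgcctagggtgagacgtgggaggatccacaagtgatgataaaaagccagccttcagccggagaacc
IFI44L: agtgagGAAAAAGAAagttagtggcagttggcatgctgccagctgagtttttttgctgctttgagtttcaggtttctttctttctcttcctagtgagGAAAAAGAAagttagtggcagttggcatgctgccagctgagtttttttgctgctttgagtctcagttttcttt
IFIT1: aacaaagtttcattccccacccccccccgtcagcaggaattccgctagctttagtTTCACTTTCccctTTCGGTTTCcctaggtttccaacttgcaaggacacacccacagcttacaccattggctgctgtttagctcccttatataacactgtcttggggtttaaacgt
ISG15: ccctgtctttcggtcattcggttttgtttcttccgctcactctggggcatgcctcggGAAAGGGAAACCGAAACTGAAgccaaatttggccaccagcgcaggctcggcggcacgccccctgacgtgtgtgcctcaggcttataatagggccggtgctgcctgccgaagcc
RSAD2: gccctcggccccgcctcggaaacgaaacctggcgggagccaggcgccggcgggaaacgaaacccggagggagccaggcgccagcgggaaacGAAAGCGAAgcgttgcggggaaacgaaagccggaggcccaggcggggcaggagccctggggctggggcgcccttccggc
PARP9: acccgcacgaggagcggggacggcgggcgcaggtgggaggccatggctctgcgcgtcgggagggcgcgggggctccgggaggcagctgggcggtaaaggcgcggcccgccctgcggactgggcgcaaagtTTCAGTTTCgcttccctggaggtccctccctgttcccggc

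In IFI44L, an exact repeat of 66 bases, whose copies start 91 bases apart, carries 1 copy of the letters each. In IFI6, a repeat of 26 bases, 41 bases apart, does the same, and another match follows. ISG15 has 3 overlapping matches in 1 run. The match in the PARP9 window is the same stretch of DNA (chr3:122564332-122564340) as the match in the window of DTX3L, the neighbour transcribed the other way. RSAD2 and its neighbour CMPK2 also share the match printed for RSAD2 (chr2:6865806-6865814).

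**Figure D1:**
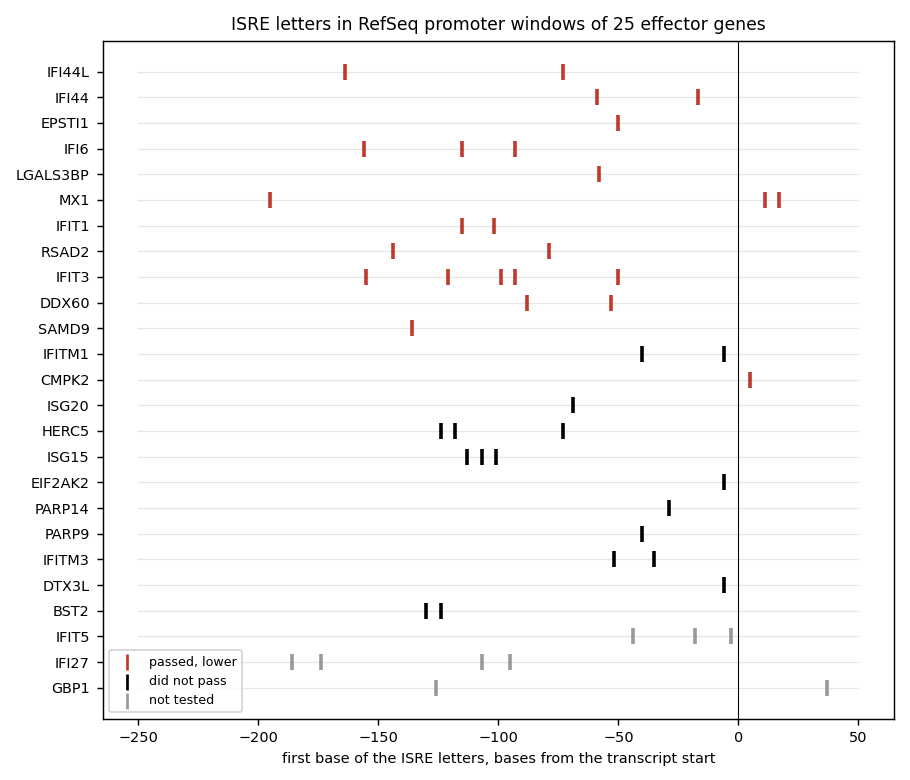
Position of each match to the ISRE letters in the RefSeq promoter windows of 25 effector genes (x axis, bases from the transcript start of the window it lies in; genes with several starts have marks from each), with genes in order of log2 fold change. Red marks are genes that passed the test as lower after UC-764864, black marks those that did not pass, and grey marks genes not tested; matches lie from 195 bases before the start to 37 after it.

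With UC-764864, the effector genes fell or did not pass, and none passed as higher. Of the 34 that passed the filter on low counts, 18 were lower and 0 higher (edgeR quasi-likelihood test, Benjamini-Hochberg adjusted p under 0.05 over 13490 genes), against 8.13% lower and 5.11% higher of all genes tested. At an unadjusted p under 0.05 edgeR gave 20 lower and 1 higher, for which no share over all genes was taken. DESeq2 gave 18 and 0 adjusted, against 10.2% of all genes lower and 856 genes higher. The median log2 fold change was −0.64, against 0.01 over all tested genes. By edgeR 13 of the 18 fell by more than 2-fold, against 343 of the 1097 genes lower among all tested. In 23 of the 34 genes all 3 UC-764864 libraries lay below all 3 DMSO libraries, which held for 17.0% of all genes; in 1 gene, BST2, they all lay above, which held for 19% of all genes. The summed level of all 37 was 479, 506 and 494 CPM in the UC-764864 libraries, against 622, 555 and 650 CPM in the DMSO libraries. These are bulk libraries, in which fewer expressing cells and less RNA per cell cannot be told apart. The count moved with single libraries and rows: 9 genes passed as lower without UDI0054, 12 without UDI0051 and 12 without UDI0053, and 8 with the rows at 0 in UDI0055 kept as counts. Over all genes those fits gave 3.49%, 2.03%, 3.31% and 0.891% lower, in that order, against 8.13% as run. IFI6, IFI44L, IFI44, LGALS3BP, MX1, DDX60 and SAMD9L passed in all 13 alternative settings.

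Low counts bear on which genes could be tested. IFI44L, EPSTI1, LGALS3BP and ISG20 reached the filter only through the DMSO libraries, and 3 of these 4 passed as lower, which the filter favours; of the other 30 tested, 15 did. IFIT5, IFI27 and GBP1 missed the filter.

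**Figure D2:**
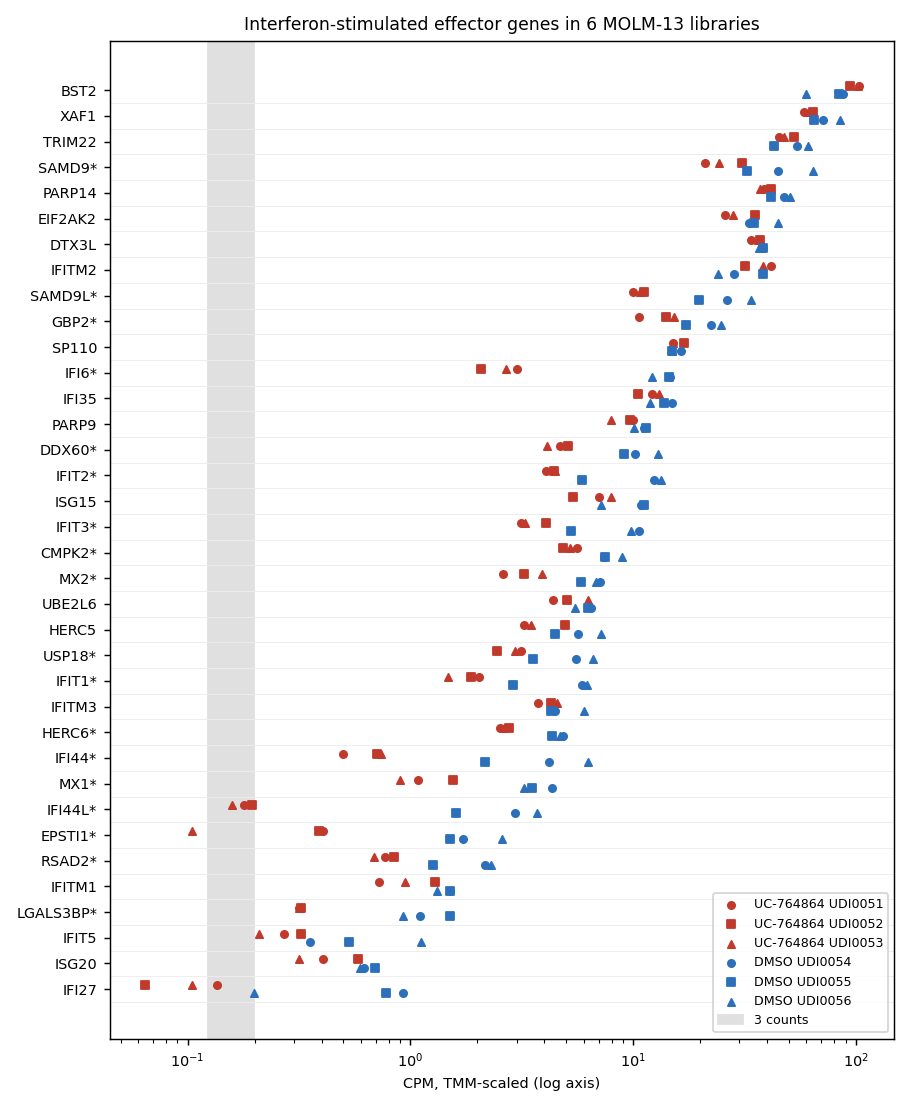
Level of 36 effector genes in each library (x axis, TMM-scaled CPM, log axis), in order of the DMSO mean; UC-764864 libraries are red and DMSO libraries blue, an asterisk marks genes that passed as lower, and the grey band spans the CPM that 3 counts stand for in the 6 libraries (0.123 to 0.198). IFI6 and IFI44L show the widest gap between the groups for their level, and GBP1, at 0 counts, is not drawn.

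The largest falls came from 5 interferon-induced proteins with less defined roles. IFI6, a small hydrophobic membrane protein that restrains apoptosis and flavivirus replication, had 3.02, 2.07 and 2.68 CPM in the UC-764864 libraries, against 14.6, 14.5 and 12.2 CPM in the DMSO libraries. The 2 groups were far apart and tight, and IFI6 fell 5.26-fold (log2 fold change −2.40 ± 0.18, SE; edgeR adjusted p = 9.94e-05), with a p ranked 2 among all 13490 genes. IFI44L, a feedback regulator of interferon responses, had 0.18, 0.194 and 0.158 CPM, from 4, 3 and 3 counts, with UC-764864, against 2.96, 1.6 and 3.69 CPM, from 67, 39 and 56 counts, with DMSO. Its log2 fold change of −3.88 ± 0.44 (edgeR adjusted p = 0.0014) therefore rests on UC-764864 libraries that stand at the level of about 3 counts. Its neighbour IFI44, an antiproliferative protein of the same family, had 0.496, 0.712 and 0.737 CPM with UC-764864, against 4.2, 2.17 and 6.26 CPM with DMSO (−2.67 ± 0.40, edgeR adjusted p = 0.00404). In both genes UDI0055 was the lowest DMSO library and still lay above every UC-764864 library.

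EPSTI1, an epithelial-stromal interaction protein induced by interferon in many cells, had 0.406, 0.388 and 0.105 CPM with UC-764864, against 1.72, 1.51 and 2.57 CPM with DMSO (−2.63 ± 0.40, edgeR adjusted p = 0.00451). LGALS3BP, a secreted glycoprotein that binds galectins, had 0.315, 0.324 and 0.316 CPM with UC-764864, against 1.1, 1.51 and 0.923 CPM with DMSO (−1.90 ± 0.34, edgeR adjusted p = 0.00865). Neither gene reached 10 counts in a UC-764864 library. IFI27, a mitochondrial relative of IFI6, had 3, 1 and 2 counts with UC-764864 and 21, 19 and 3 counts with DMSO and was not tested for that reason. IFI35, a leucine zipper protein that partners with NMI, was at 11.9 ± 1.3 CPM with UC-764864 and 13.5 ± 1.59 CPM with DMSO, and did not pass (edgeR adjusted p = 0.412).

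The next group recognises RNA or acts on translation, and 6 of its 8 tested genes fell, with a median log2 fold change of −1.24. IFIT1, which binds RNA that lacks the cap methylation of host messengers, had 2.03, 1.88 and 1.47 CPM with UC-764864, against 5.92, 2.9 and 6.19 CPM with DMSO. IFIT2, its partner in the IFIT complex, had 4.06, 4.4 and 4.47 CPM with UC-764864, against 12.4, 5.89 and 13.3 CPM with DMSO. IFIT3, which stabilises IFIT1, had 3.15, 4.08 and 3.26 CPM with UC-764864, against 10.6, 5.24 and 9.75 CPM with DMSO. The 3 genes showed one pattern: UC-764864 libraries close together, UDI0054 and UDI0056 high, and UDI0055 between them. Their log2 fold changes were −1.46 ± 0.29, −1.28 ± 0.27 and −1.29 ± 0.25, with edgeR adjusted p of 0.0123, 0.0137 and 0.0116. All 3 calls were lost without UDI0054 (edgeR adjusted p = 0.0521, 0.0599 and 0.0512) and with the rows at 0 kept. IFIT5, a member that binds RNA ends with a triphosphate, was too low to test, at 6, 5 and 4 counts with UC-764864 and 8, 13 and 17 counts with DMSO.

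SAMD9 and SAMD9L are adjacent genes for antiviral proteins that curb translation and growth, and both are known for inherited marrow failure. SAMD9L had 10.0, 11.2 and 10.7 CPM with UC-764864, against 26.3, 19.8 and 33.7 CPM with DMSO, and fell 2.49-fold (−1.32 ± 0.18, edgeR adjusted p = 0.00337). SAMD9 had 21.1, 30.8 and 24.3 CPM with UC-764864, against 44.5, 32.5 and 64.2 CPM with DMSO (−0.89 ± 0.22, edgeR adjusted p = 0.0257). For SAMD9 the groups nearly touched, at UDI0052 and UDI0055, and the call was lost without UDI0051, UDI0053 or UDI0054 (edgeR adjusted p up to 0.0981). Its log2 fold change shrank to −0.44 once each library's GC trend was taken out, and it still passed. DDX60, a helicase-like protein that aids RNA sensing, had 4.69, 5.11 and 4.1 CPM with UC-764864, against 10.2, 9.12 and 12.9 CPM with DMSO (−1.21 ± 0.17, edgeR adjusted p = 0.00367). The other 2 genes of the group did not pass. EIF2AK2 encodes PKR, the kinase that stops translation on sensing double-stranded RNA, and was at 29.7 ± 4.86 CPM with UC-764864 and 37.6 ± 6.19 CPM with DMSO (−0.34, 95% interval −0.68 to 0.00; edgeR adjusted p = 0.16). ISG20, an RNA exonuclease, was below 0.7 CPM in every library (−0.58, interval −1.36 to 0.19; edgeR adjusted p = 0.286).

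**Figure D3:**
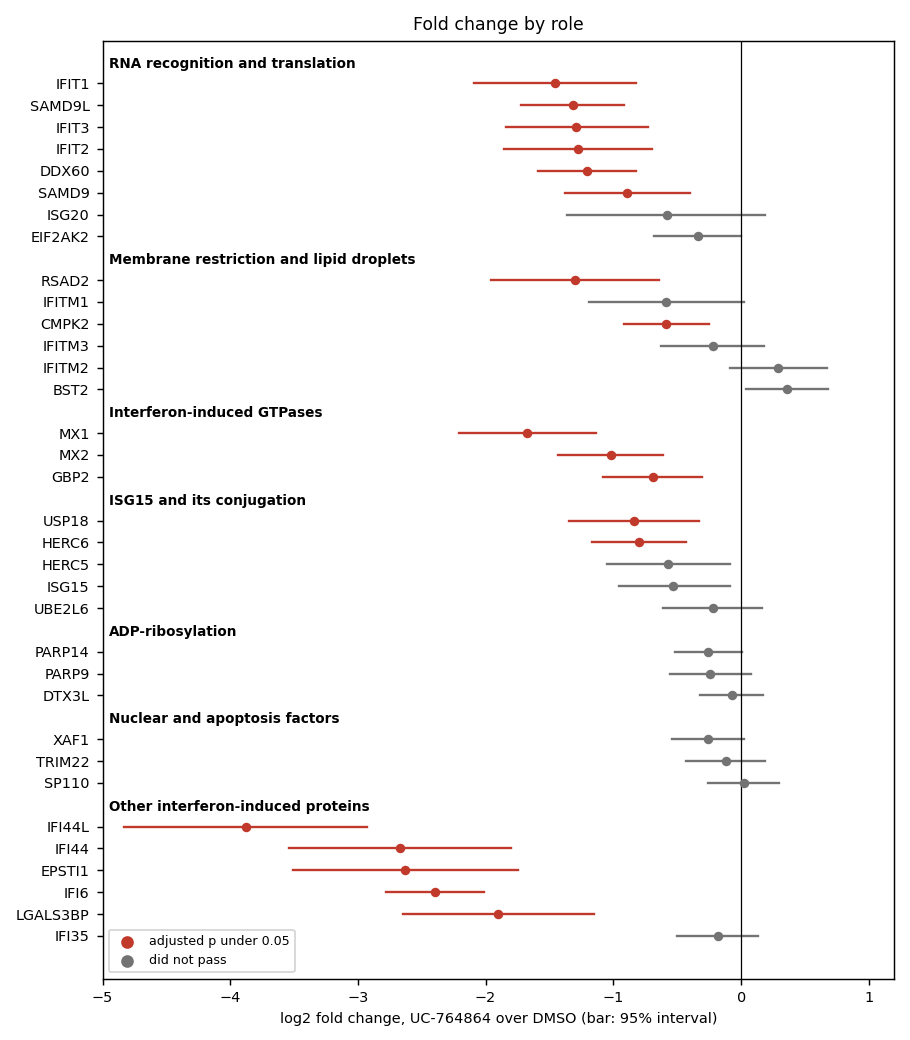
Log2 fold change of UC-764864 over DMSO for the 34 tested effector genes (x axis), grouped by role, with bars for the 95% interval of each gene before adjustment. The RNA-recognition genes, the GTPases and the less defined interferon-induced proteins lie mostly left of 0, and BST2 and IFITM2 lie furthest right of it.

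The interferon-induced GTPases assemble on viral or vacuolar structures, and all 3 that could be tested fell. MX1, which blocks influenza and other viruses in the cytoplasm, had 1.08, 1.55 and 0.895 CPM with UC-764864, against 4.33, 3.52 and 3.23 CPM with DMSO. MX2, which acts on HIV at the nuclear pore, had 2.61, 3.24 and 3.89 CPM with UC-764864, against 7.07, 5.85 and 6.79 CPM with DMSO. The groups were well separated in both genes, with log2 fold changes of −1.68 ± 0.24 for MX1 and −1.02 ± 0.19 for MX2 (edgeR adjusted p = 0.00384 and 0.00918). GBP2, a guanylate-binding protein more responsive to interferon gamma, had 10.6, 14.0 and 15.2 CPM with UC-764864, against 22.3, 17.3 and 24.8 CPM with DMSO (−0.69 ± 0.18, edgeR adjusted p = 0.0268). Its call was lost without UDI0051, UDI0053 or UDI0054, with adjusted p up to 0.135. GBP1 had 0 counts in all 6 libraries, which allows up to 0.123 to 0.198 CPM for 3 counts, by library.

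ISG15 is a ubiquitin-like protein that is attached to other proteins by a small enzyme chain, and 2 of the 5 genes for this system fell. USP18 removes ISG15 and also blocks the interferon receptor. It had 3.15, 2.46 and 2.95 CPM with UC-764864, against 5.52, 3.56 and 6.59 CPM with DMSO (−0.84 ± 0.23, edgeR adjusted p = 0.0374), the call nearest the threshold. HERC6, the main ISG15 ligase in mice, had 2.52, 2.78 and 2.63 CPM with UC-764864, against 4.82, 4.34 and 4.68 CPM with DMSO (−0.80 ± 0.17, edgeR adjusted p = 0.015). USP18 passed in 1 of the 6 fits without a library and HERC6 in 3 of them.

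The other ISG15 genes did not pass. ISG15 itself had 7.03, 5.37 and 7.95 CPM with UC-764864, against 10.9, 11.2 and 7.18 CPM with DMSO, so that UDI0056 lay among the UC-764864 libraries (−0.53, interval −0.96 to −0.09; edgeR adjusted p = 0.0959). Without UDI0056 it passed at −0.69 (edgeR adjusted p = 0.0141). After GC correction it passed with a log2 fold change of −0.52, close to that as run. HERC5, the human ISG15 ligase and the neighbour of HERC6, had 3.24, 4.92 and 3.47 CPM with UC-764864, against 5.66, 4.46 and 7.18 CPM with DMSO (−0.57, interval −1.05 to −0.09; edgeR adjusted p = 0.104), and it passed without UDI0055 at −0.73 (edgeR adjusted p = 0.0322). ISG15 and HERC5 were the nearest to the threshold among those that missed it, and whether HERC5 and HERC6 differ in response was not tested. UBE2L6, the conjugating enzyme for ISG15, was at 5.23 ± 0.958 CPM with UC-764864 and 6.07 ± 0.529 CPM with DMSO (−0.22, interval −0.61 to 0.16; edgeR adjusted p = 0.404). USP18 has the near-identical copy USP41, between which reads can be split, so its value is uncertain.

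Among genes that act at membranes and lipid droplets, 2 of 6 fell. RSAD2 encodes viperin, which makes a chain-terminating nucleotide, and CMPK2, beside it, a mitochondrial kinase that supplies nucleotides. RSAD2 had 0.766, 0.841 and 0.684 CPM with UC-764864, against 2.17, 1.27 and 2.31 CPM with DMSO (−1.30 ± 0.30, edgeR adjusted p = 0.0197). CMPK2 had 5.59, 4.85 and 5.21 CPM with UC-764864, against 7.38, 7.45 and 8.9 CPM with DMSO (−0.59 ± 0.15, edgeR adjusted p = 0.03). No library of one group overlapped the other in either gene, yet the CMPK2 call held in only 1 of the 6 fits without a library and the RSAD2 call in 3. The entry inhibitors IFITM1, IFITM2 and IFITM3 did not pass, with log2 fold changes of −0.59, 0.29 and −0.22 and edgeR adjusted p of 0.168, 0.272 and 0.436; these genes are close copies, so their counts are uncertain.

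BST2, singled out after its values were seen, encodes tetherin, which holds budding virus at the cell surface. It had 103, 93.9 and 102 CPM with UC-764864, against 87.8, 84.4 and 59.7 CPM with DMSO, the reverse order of most other effector genes. The difference did not pass (0.36, interval 0.04 to 0.68; edgeR adjusted p = 0.116). After GC correction it passed as higher, at 0.27 (edgeR adjusted p = 0.0295). IFITM2 passed as higher without UDI0055, at 0.50 (edgeR adjusted p = 0.0352).

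PARP9, DTX3L and PARP14 encode ADP-ribosylation factors that work together in interferon signalling and DNA repair, and none passed, with 0 at an unadjusted p under 0.05 by edgeR and 0 by DESeq2. Their log2 fold changes were −0.24, −0.07 and −0.26, with 95% intervals of −0.56 to 0.08, −0.32 to 0.17 and −0.52 to 0.01 (edgeR adjusted p = 0.28, 0.686 and 0.175). Over all genes edgeR gave 8.13% lower and 5.11% higher, so 0 of 3 does not set this group apart. In PARP9 and PARP14 all UC-764864 libraries lay below all DMSO libraries, which held for 17.0% of all genes. DTX3L stood at 35.7 ± 1.66 CPM with UC-764864 and 37.6 ± 0.888 CPM with DMSO, and the lower end of its interval lay well above the −1.46 of IFIT1. TRIM22, a ubiquitin ligase that restricts viruses, SP110, a nuclear body protein, and XAF1, an antagonist of the apoptosis inhibitor XIAP, also missed the threshold, at −0.12, 0.02 and −0.26 (edgeR adjusted p = 0.587, 0.916 and 0.182). The sign of SP110 turned in 5 alternative settings, scaling by library size among them, and its interval ran from −0.26 to 0.30. XAF1 and PARP14 passed as lower with the GC trend removed.

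**Figure D4:**
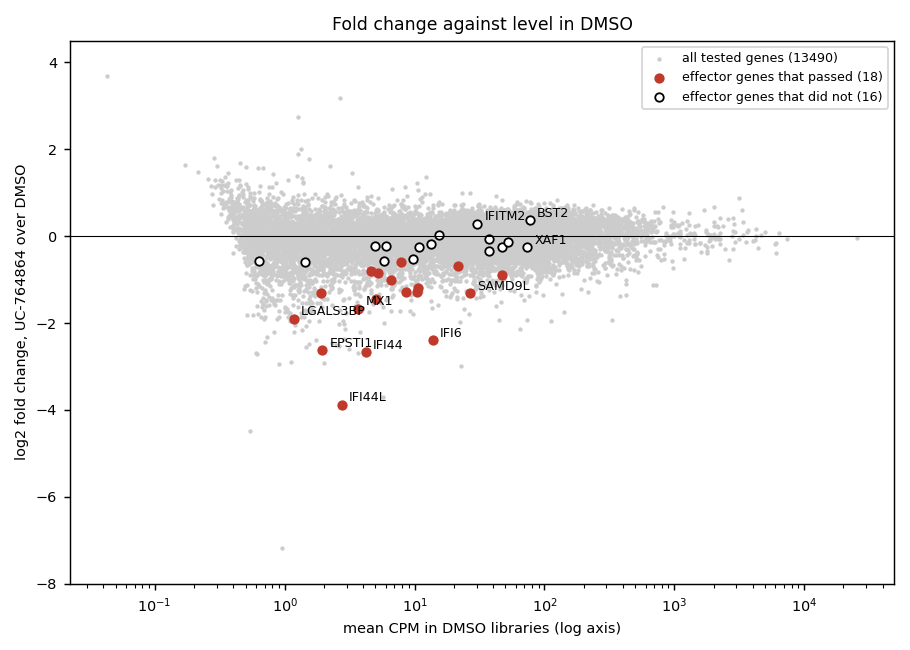
Log2 fold change of UC-764864 over DMSO (y axis) against mean CPM in the DMSO libraries (x axis, log axis) for 13490 tested genes in grey, with the 18 effector genes that passed in red and the 16 that did not as open circles. The red points all lie below 0, some of them (CMPK2 and GBP2 among these) within the grey cloud and IFI44L and IFI6 well under it, and the effector genes at the highest levels, BST2 and XAF1, lie near 0; DMSO values enter both axes.

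Among the 34 tested genes, those at lower levels in DMSO tended to fall more. Spearman's rho was 0.56 between log2 CPM in DMSO and the signed log2 fold change. That is a description over genes of the same 6 libraries, in which DMSO values enter both measures. Across the same genes rho was 0.35 between GC content of the transcript and log2 fold change, against 0.26 over 11647 genes with a GC value. The genes that fell had a median GC of 43.9% and the other tested ones 50.2%. With each library's GC trend removed, 22 effector genes passed as lower, among them all 18 of the comparison as run, and BST2 as higher; over all genes that setting gave 15.1% lower and 2005 genes higher, against 8.13% and 690 as run. Per length, the DMSO level was highest for BST2, at 75.9 CPM per kb of the longest coding transcript in GENCODE 29, followed by IFITM2 at 34, XAF1 at 20.3, TRIM22 at 17.6 and IFI6 at 16.4 CPM per kb. With UC-764864, IFI6 stood at 3.08 CPM per kb.

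Among the DMSO libraries, UDI0055 was the lowest in 14 of the 18 genes that fell, against 35.4% of all tested genes. It is also the library with rows at 0. Without it, 19 effector genes passed as lower, including all 18 of the comparison as run; over all genes that fit gave 12.6% lower, against 8.13% as run.

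The calls of neighbouring effector genes are set side by side here. Of all 34 tested effector genes 52.9% fell, and whether neighbours share a call more often than other pairs was not tested. In 9 pairs no coding gene lay between them in RefSeq and both genes were tested. Both fell in 5 (IFI44L with IFI44, IFIT2 with IFIT3, CMPK2 with RSAD2, MX2 with MX1, SAMD9 with SAMD9L). HERC6 fell alone beside HERC5. Neither passed in 3 (IFITM2 with IFITM1, IFITM1 with IFITM3, PARP9 with DTX3L), which is not a shared response: IFITM2 and IFITM1 were at 0.29 and −0.59. The pairs that share an ISRE site differed from each other in call, not within the pair. CMPK2 and RSAD2 both fell, and PARP9 and DTX3L both missed the threshold. Of the 25 genes with the ISRE letters in a window, 22 were tested and 12 fell, with a median log2 fold change of −0.74. Of the 6 with windows but no such letters, 2 fell, with a median of −0.24; they include SAMD9L, at −1.32, and a lack of these letters in the window says nothing about a factor. Of the 6 with no window in the table, 4 fell, with a median of −0.77. Over all 34 tested effector genes 18 fell, with a median of −0.64, and whether the letters bear on the fall was not tested.

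**Figure D5:**
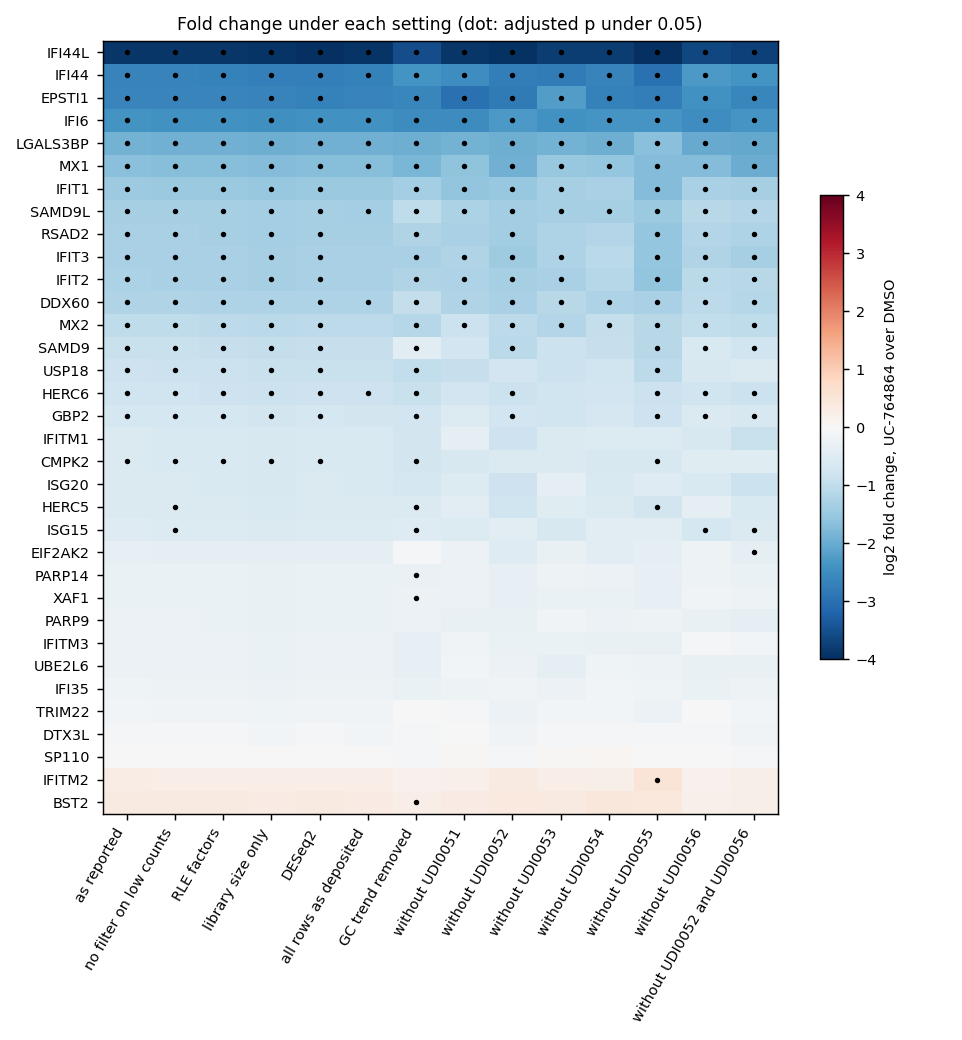
Log2 fold change of UC-764864 over DMSO for the 34 tested effector genes (rows, in order of the value as reported) under the fit as reported and 13 alternative settings (columns), on a colour scale from blue (lower) to red (higher), with a dot where the adjusted p was under 0.05. The rows of IFI44L, IFI44, IFI6, LGALS3BP, MX1, SAMD9L and DDX60 have a dot in every column, and the column with all rows as deposited has the fewest dots.

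Other genes of the interferon system were read from lists written for this comparison. OAS2, an OAS synthetase that senses double-stranded RNA, was at 0.827 ± 0.129 CPM with UC-764864 and 3.78 ± 0.372 CPM with DMSO (−2.21, edgeR adjusted p = 0.00122), and OAS1, of the same family, fell by 2.01 on the log2 scale (edgeR adjusted p = 0.00133). From the receptor to ISGF3, 1 of 12 genes fell (8.33%, near the 8.13% of all genes) and 0 rose by edgeR (1 and 0 by DESeq2, 3 and 3 at an unadjusted p under 0.05), with log2 fold changes between −0.76 and 0.34. The gene that fell was IFNAR1, a chain of the type I interferon receptor, at 53.4 ± 5.62 CPM with UC-764864 and 82.9 ± 11.2 CPM with DMSO (−0.64 ± 0.13, edgeR adjusted p = 0.0142). The lowest value, −0.76 (interval −1.28 to −0.24), was that of IRF9, named after its values were seen. IRF9 was at 1.41 ± 0.16 CPM with UC-764864 and 2.43 ± 0.484 CPM with DMSO, and missed the threshold (edgeR adjusted p = 0.0544). Its UC-764864 libraries all lay below the DMSO libraries, as in 4 genes of the list, and in 4 others they all lay above. Those orders held for 17.0% and 19% of all genes, so the order alone does not set IRF9 apart. Of the 6 tested interferon regulatory factors 0 passed in either direction by edgeR, against 1 lower and 0 higher by DESeq2 and 1 in each direction at an unadjusted p under 0.05. With 8.13% lower and 5.11% higher of all genes by edgeR, 0 of 6 does not set these factors apart. Sensors of nucleic acid and their adaptors fell in 3 of 8 tested cases (37.5%, against 8.13% of all genes). IFI16, a DNA-binding protein, was at 2.77 ± 0.294 CPM with UC-764864 and 6.0 ± 0.169 CPM with DMSO (−1.12, edgeR adjusted p = 0.00402). The RNA helicase DHX58 was at −1.29 (edgeR adjusted p = 0.0163).

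The list of other interferon-induced genes moved both ways. Of 38 tested, 8 fell (21.1%) and 4 rose, against 8.13% lower and 5.11% higher of all genes, with a median of −0.12. IFI16 stands on this list and on that of the sensors, and is counted in both. NT5C3A, a pyrimidine nucleotidase, was at 18.1 ± 1.6 CPM with UC-764864 and 32.4 ± 3.31 CPM with DMSO (−0.84, edgeR adjusted p = 0.00512). The 4 that rose, named after their values were seen, were ZNFX1 at 0.60, TRIM14 at 0.56, ISG20L2 at 0.45 and LAP3 at 0.43. Of the 6 interferon genes on the ligand list, 5 had 0 counts in every library, and IFNB1 had 1 count, in a DMSO library, so that no ligand could be tested at this depth.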

How the data were processed

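The values deposited by the authors are unnormalized counts of reads, whole numbers, with a row for each gene symbol and a column for each library. Per the submitters' processing notes, FastQC 0.11.7, HISAT2 2.0.5, featureCounts 1.5.2 and GRCh37 were used; the sources used here do not give their roles, the annotation release or the strand setting, so reads of overlapping genes cannot be told apart. Per the labels' protocols, poly(A) RNA was read as 75 bp paired ends. The treatment of each column comes from a second deposited table that holds no replicate numbers, so no library was paired.

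Of 56638 rows, 52839 were used: runs of 0 in 1 library that hold at least 10 rows with 50 or more counts in every other library were treated as missing (3799 rows). The test was edgeR 4.0.16 under R 4.3.3: filterByExpr (minimum count 10), TMM factors (0.978 to 1.03), glmQLFit and glmQLFTest on a model of treatment alone, and Benjamini-Hochberg adjustment over 13490 genes at a threshold of 0.05. SE is the absolute log2 fold change over the root of F, and intervals are 95% from the same fit, unadjusted. CPM uses TMM-scaled library sizes; 3 counts, the floor, are 0.123 to 0.198 CPM and cover counting error only. The script was tested on simulated data. DESeq2 1.42.0 was an alternative. GC content and length come from GENCODE 29 transcripts, matched for 37 of 37 effector genes; promoters come from RefSeq (GRCh38.p14), matched by symbol.

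The effector genes, lists and tests were chosen with earlier results of these data known. Genes named are those that passed, with family members of such genes, the 2 nearest the threshold on each side, UBE2N, and up to 2 genes with the smallest p from each list; the remaining effector genes (EIF2AK2, ISG20, IFI35, PARP9, PARP14, DTX3L, TRIM22, SP110 and XAF1) are given with values so that all 37 are accounted for, a choice made after their values were seen, as were the markers named. BST2 and IRF9 were also named after their values were seen. No list was tested as a whole.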

Additional observations from a re-analysis of the deposited data

How the results depend on the processing

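The 18 effector genes lower became 8 with all rows as deposited, where all genes gave 125 lower and 22 higher, the other interferon lists 5 lower and 0 higher, against 1097, 690, 14 and 4 as run. With the GC trend removed, 1 effector gene was higher, all genes gave 1761 lower and 2005 higher, and the other lists 24 and 11. With no filter on low counts all genes gave 1676 lower; among effector genes under the filter, IFI27 then passed at −2.61 and IFIT5 did not, at −1.24. With 1 library left out, effector genes lower ranged from 9 to 19 and higher from 0 to 1, their median from −0.83 to −0.64, all genes lower from 278 to 1729 and higher from 62 to 1525, and the other lists, with IFI16 counted once, lower from 6 to 19 and higher from 0 to 9. Without UDI0052 and UDI0056 the median of the effector genes was −0.79. SP110 changed sign with library size only (−0.02), the GC trend removed (−0.09), without UDI0052 (−0.06), without UDI0055 (0.00; −0.06 to 0.07 over the fits without 1 library) and without UDI0052 and UDI0056 (−0.08). The cause of these shifts was not tested. RLE factors, library size only and DESeq2 each called the same 18 effector genes lower. Scaling by library size only gave 1271 lower and 508 higher over all genes and a median of −0.03. The log2 ratio of summed CPM stayed between −0.37 and −0.28 over the settings run, against −0.30. A window of 150 bases before to 50 after the start held the ISRE letters in 25 genes, as the whole window did. No paired analysis was possible because the columns carry no replicate number. Leaving out a library leaves 2 in its group. IFI27 also passed as lower without UDI0056 and without UDI0052 and UDI0056. Genes with few counts, such as IFI27 and IFIT5, were compared only where the filter let them in, and GBP1, at 0 counts, in no setting.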
